A study of Mus musculus and Homo sapiens with 12 samples.

Results

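PURPL, LINC00861, NEAT1 and MALAT1 are 4 human long noncoding RNAs whose levels were followed in blood progenitor-like cells after knockdown of DDX21, an RNA helicase of the nucleolus. They were looked up by symbol among the 14931 human gene rows that the deposited table pairs with a symbol, of 78932 gene rows in all. 3 of the 4 had such a row. MALAT1 did not, and a row at its expected position is described instead. The mouse counterparts Neat1 and Malat1 were read from a matching experiment in mouse cells. The 4 RNAs were chosen by their human values in shDDX21 against shNC, so their human differences are given below as a description, with no test. The mouse values took no part in that choice and were tested.

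Polyadenylated RNA was counted in 12 libraries, 3 in each of 4 groups. The human cells were differentiated from H1, an established human embryonic stem cell line, transduced with a lentivirus that carries mCherry and a hairpin, and sorted alive 2 days later as CD34+ CD45+ CD43+ shRNA+. The control group received shNC and the knockdown group received shDDX21, and no untransduced group was analysed here, so both groups carry a hairpin vector in cells of 1 line. The mouse cells were live lineage- cKit+ (LK) progenitors from E13.5 fetal liver. WT embryos were Ddx21f/f, with both copies of the gene flanked by recombination sites, and cKO embryos were Vav-Cre; Ddx21f/f, in which the Vav promoter drives Cre recombinase in blood cells. No separate culture, litter or embryo is named for any library, so the spread between libraries may be partly technical.

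Human libraries held 15289510 to 19798608 counts and mouse libraries 21116079 to 23898130. Human DDX21 went from 470.1 ± 6.05 to 68.3 ± 1.14 CPM (counts scaled to equal library size and given per 1e6; SD, n = 3 in each group here and throughout), 0.145 of the control level, and mouse Ddx21 from 1424 ± 12.5 to 280.2 ± 3.62 CPM, 0.197 of it. The genes behind the human sort gates were present: CD34 was at 249 and 297 CPM in shNC and shDDX21, PTPRC, which encodes CD45, at 94.9 and 69.4, and SPN, which encodes CD43, at 691 and 883. Of 7 listed pluripotent cell markers, only 2 had a row with a symbol, LIN28A and DNMT3B, at 157 and 209.9 CPM in shNC. POU5F1, NANOG and SOX2 were among those without one, so their levels were not read. Whether pluripotent cells were present was not tested. Mouse Kit was at 362 CPM in WT. Of the genes behind the lineage sort, Cd3e and Ly6g were at 0 in WT, though not at 0 in every cKO library. Itgam, which encodes Cd11b, was at 3.27 CPM in WT. Ptprc, whose B220 form is the B cell marker, was at 70.9 CPM in WT. Mouse libraries also stood apart within their groups: the chi-square per degree of freedom between libraries was 1.96 for WT replicates 1 and 2 but 15.7 and 10.9 against WT replicate 3, and 7.25 to 25.1 within cKO, against 1.54 to 1.71 in the human groups. In these bulk samples, fewer cells of a type and less RNA per cell cannot be told apart.

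Long noncoding RNAs do not code for protein, and many act in the nucleus. NEAT1 is the scaffold of paraspeckles, nuclear bodies built when the long form of the RNA binds proteins such as NONO and SFPQ; it has a short polyadenylated form and a long form whose 3′ end is cut by RNase P. MALAT1 lies next to NEAT1, gathers in nuclear speckles, which store splicing factors, and is cut by RNase P too. Both long forms end in a triple helix in place of a normal poly(A) tail, and a poly(A) selection can retain them through runs of A that the genome encodes and, for NEAT1, through the short form. PURPL is a p53-induced RNA that binds MYBBP1A. LINC00861 is an intergenic RNA known mostly from lymphoid cells.

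The ends of the mouse transcripts are printed because these libraries were made from poly(A) RNA, and the ends differ in the A runs and signals they hold. They are from GENCODE M21 on GRCm38, minus strand of chromosome 19, read 5′ to 3′, and each run has 63 bases. Capitals mark the longest run of A with the GCAAAA after it in Malat1-201, the A run with GCAAAA that closes the long Neat1-201, and the AATAAA poly(A) signal near the end of the short Neat1-202.
Malat1-201 (chr19:5795982-5796044): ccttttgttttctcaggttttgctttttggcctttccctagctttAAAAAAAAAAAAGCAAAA
Neat1-201 (chr19:5824708-5824770): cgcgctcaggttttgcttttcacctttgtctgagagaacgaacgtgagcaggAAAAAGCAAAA
Neat1-202 (chr19:5842307-5842369): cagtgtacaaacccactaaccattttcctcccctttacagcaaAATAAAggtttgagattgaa
The capitals of Malat1-201 hold 12 A in a row and stop 292 bases before the end of the annotated 6983-base transcript. Those of Neat1-201 stop at the end of a 20771-base transcript, and those of Neat1-202 stop 14 bases before the end of a 3004-base one. Searched on the transcript strand only, a run of 12 A was in 4.07% of 141767 annotated mouse transcripts, and the letters AAAAAGCAAAA were in 0.436%. A match of letters is a description of the sequence and not a measured cleavage or priming site.

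PURPL (ENSG00000250337; hg38 chromosome 5, 27217714 to 27497871, plus strand, exon length 23638 bases) was counted 10223, 8046 and 9519 times in the shNC libraries and 22247, 19570 and 20204 times with shDDX21. In CPM these were 541, 525 and 536 against 1142, 1160.1 and 1151. All 3 knockdown libraries lay above all 3 controls, and the libraries of each group lay close together. The means were 534 ± 8.01 and 1151 ± 9.08 CPM, a ratio of 2.16 and a log2 difference of 1.11 (SE 0.02). PURPL went from rank 157 to rank 51 by CPM among the 20188 genes tested, so it was an abundant RNA in the controls already. Of 11688 tested genes with a mean of at least 5 CPM, PURPL had the 99th largest log2 difference.

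LINC00861 (ENSG00000245164; hg38 chromosome 8, 125859721 to 126292788, minus strand, exon length 9619 bases) was counted 1142, 920 and 1063 times with shNC and 3908, 3624 and 3742 times with shDDX21. This was 60.4, 60.1 and 59.8 CPM against 201, 215 and 213. Its controls were nearly level with each other, and the groups did not overlap. The means of 60.1 ± 0.31 and 209.5 ± 7.76 CPM gave a ratio of 3.49 and a log2 difference of 1.80 (SE 0.034), the 9th largest of the same 11688 genes. The rank by CPM moved from 3934 to 786. An unnamed row on the plus strand that runs across part of the gene (ENSG00000286122) was chosen after its values were seen. It was at 30.3 ± 1.04 and 81.9 ± 1.4 CPM, with a log2 difference of 1.44 (SE 0.048), given as a description with no test. Whether the counting used strand is not given in the sources used here, so reads of the 2 rows cannot be told apart where they overlap. Rows of either strand covered 1.35% of the exon bases of LINC00861.

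NEAT1 (ENSG00000245532; hg38 chromosome 11, 65422278 to 65445540, plus strand, exon length 23263 bases) took 54293, 43218 and 58573 reads with shNC and 112805, 94591 and 98321 with shDDX21. The CPM values were 2873, 2821 and 3296 against 5790.4, 5607 and 5599. The third control library was the highest of the controls and still lay below every knockdown library. The means were 2997 ± 260.5 and 5666 ± 108 CPM, a ratio of 1.89 and a log2 difference of 0.92 (SE 0.024), which was 0.99 without shNC replicate 3. NEAT1 took 0.302% of all counts in shNC and 0.559% in shDDX21, and its rank by CPM went from 15 to 11. One count per gene does not separate the short from the long form.

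**Figure D1:**
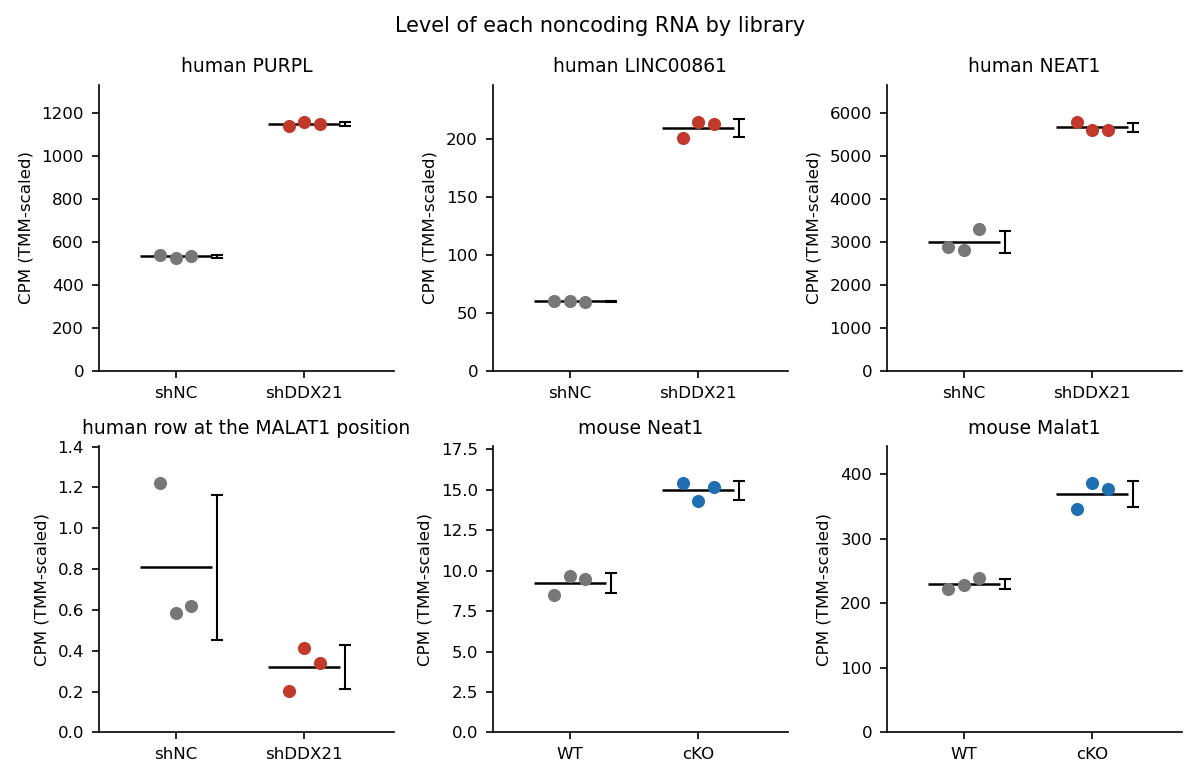
Level of each RNA in each library in CPM (y axes start at 0), 1 panel per RNA; points are libraries, and bars mark the group mean with its SD. PURPL, LINC00861 and NEAT1 lay higher in all 3 shDDX21 libraries than in all 3 shNC libraries, the row at the MALAT1 position stayed at or below 1.22 CPM, and mouse Neat1 and Malat1 lay higher in all 3 cKO libraries.

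Levels between genes were compared per kilobase of exon. In shNC, NEAT1 was at 129 ± 11.2, PURPL at 22.6 ± 0.339 and LINC00861 at 6.25 ± 0.0322 CPM per kb, and in shDDX21 they were at 244 ± 4.65, 48.7 ± 0.384 and 21.8 ± 0.807. The order NEAT1, PURPL, LINC00861 was the same in all 6 human libraries, with no overlap within a group. Across groups, LINC00861 in shDDX21 (20.9 to 22.3 CPM per kb) reached the range of PURPL in shNC (22.2 to 22.9). NEAT1 was 5.7 ± 0.477 times PURPL in shNC (5.4 to 6.25) and 5 ± 0.131 times in shDDX21 (4.91 to 5.15). PURPL was 3.62 ± 0.0488 times LINC00861 in shNC (3.56 to 3.64) and 2.24 ± 0.0688 times in shDDX21 (2.2 to 2.32). These ratios restate the human log2 differences by which the members were chosen, so they are a description and not a further result.

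For background, 52.7% of the 20188 human genes tested passed the test (adjusted p under 0.05), 25.3% as higher and 27.4% as lower. With upper-quartile scaling 6255 were higher and 4635 lower, and with the gene-length correction 5428 and 5202, against 5105 and 5526. Groups that did not overlap, with the knockdown higher, were seen in 27.9% of genes, and with it lower in 29.5%. The members were listed for this contrast, and nothing is read from their place in it.

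MALAT1 had no row of its own symbol. In the mouse annotation Malat1 lies beside Neat1, on the side away from Frmd8. Of the 18 human rows without a symbol within 100 kb of NEAT1 on the side away from FRMD8, the longest (ENSG00000251562; hg38 chromosome 11, 65497606 to 65508073, 10468 bases) lies on the strand of NEAT1 and was taken as the row at the MALAT1 position. The raw human table gives it no name. Its reads numbered 23, 9 and 11 with shNC and 4, 7 and 6 with shDDX21, or 60 in all. The level was 0.808 ± 0.355 CPM in shNC and 0.321 ± 0.106 in shDDX21, with a log2 difference of -1.36 (SE 0.46), given as a description. The first control library had more counts than any other, and the log2 difference without it was -0.92. NEAT1, next to it, had 43218 or more in every library.

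The exon bases of that row were mostly shared with other rows. Of its 10468 bases, 9650 (92.2%) were also covered by other rows, chiefly by ENSG00000270117 with 1257 bases and ENSG00000289740 with 8388 bases on the opposite strand, and both of these had 0 counts. The remaining 818 bases lay in stretches of 37, 140 and 641 bases. Among all human rows, 0.246% of the 1221 whose exon bases were all shared with opposite-strand rows had any count, against 55.7% of the 45749 rows that share none. In the mouse table this was 0 of 473 rows and 47.7%. The row at the MALAT1 position is not in the fully shared class. Of rows with 90% to under 100% of exon bases shared with opposite-strand rows, its own class, 24.3% of 378 human rows had any count. In the mouse this was 23.1% of 108 rows. How the counting treated reads that fit more than 1 row is not given in the sources used here, and the part of this in the 60 counts was not tested. The other members shared little: 0.651% of exon bases for PURPL, 5.77% for NEAT1, 1.85% for mouse Neat1 and 7.72% for mouse Malat1. The level of human MALAT1 is therefore not taken from this row.

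**Figure D2:**
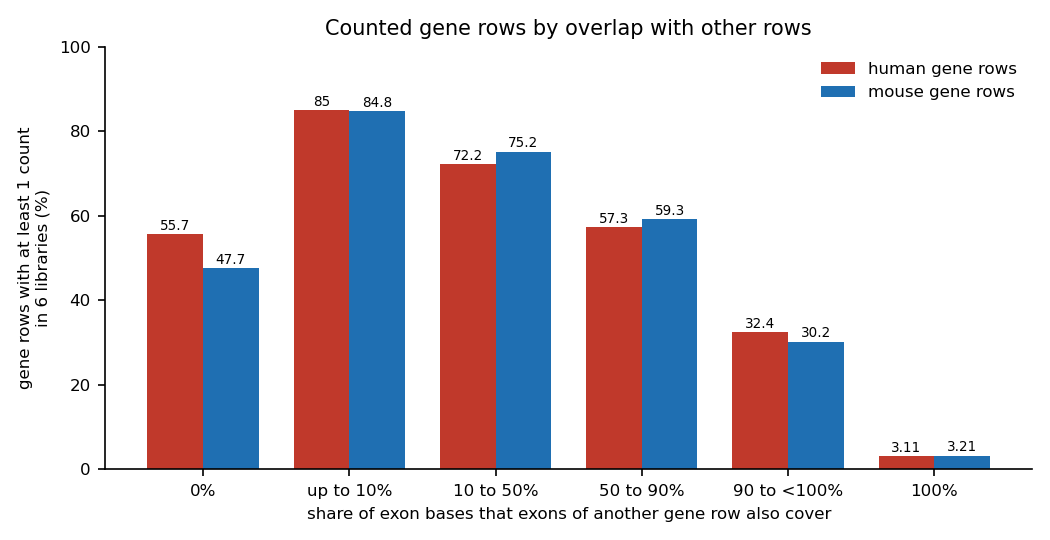
Share of gene rows with at least 1 count in 6 libraries (y axis, percent, from 0) by the share of exon bases that rows of either strand also cover (x axis), for the human (red) and mouse (blue) tables. A count was seen for 55.7% of human and 47.7% of mouse rows with no shared base, and for 3.11% and 3.21% of rows with every base shared. For rows with 90% to under 100% shared it was 32.4% and 30.2%.

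In the mouse LK cells, Malat1 and Neat1 both rose in the cKO. Malat1 (ENSMUSG00000092341; GRCm38 chromosome 19, 5795690 to 5802672, minus strand, 6983 exon bases) was counted 4966, 4696 and 5144 times in the WT libraries and 7958, 9535 and 8304 times in the cKO libraries. This was 223, 229 and 239 CPM against 347, 386 and 377, and the groups did not overlap. The mean level was 230.0 ± 8.09 in WT and 369.8 ± 20.8 CPM in cKO, and the log2 fold change was 0.69 (SE 0.051; edgeR quasi-likelihood test, adjusted p 7.12e-05). Neat1 (ENSMUSG00000092274; chromosome 19, 5824708 to 5845478, minus strand, 20771 exon bases) was counted 190, 199 and 204 times in WT libraries and 354, 353 and 336 times in cKO libraries. In CPM these were 8.52, 9.69 and 9.47 against 15.4, 14.3 and 15.2, so each cKO library lay above each WT library. The means of 9.22 ± 0.619 and 15 ± 0.596 CPM gave a log2 fold change of 0.70 (SE 0.087; edgeR, adjusted p 0.000837). Of the 14918 mouse genes tested, 36.5% passed, 20.7% as higher and 15.8% as lower; groups did not overlap in 27.6% with the cKO higher and 21.4% with it lower. With total counts as the only scaling, 3565 mouse genes were higher and 1612 lower, against 3083 and 2360 in the main fit, and with a correction for gene length 2575 were higher and 3070 lower; under both, Neat1 and Malat1 passed as higher, Neat1 with a log2 fold change of 0.48 under the length correction. Without WT replicate 3 the log2 fold change was 0.71 for both, and without cKO replicate 1 or 2 it was 0.69 and 0.75 for Neat1 and 0.74 and 0.67 for Malat1, past the threshold each time.

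Per kilobase, mouse Malat1 was 74.3 ± 3.82 times as high as Neat1 in WT and 73.6 ± 6.74 times in cKO, and these ranges (70.2 to 77.7 and 66.9 to 80.3) overlapped. Mouse Neat1 was at 0.444 ± 0.0298 and 0.721 ± 0.0287 CPM per kb, at percentiles 16.8 and 20.8 of the genes tested. Human NEAT1 stood at percentiles 99.4 and 99.6 of its own table. The 2 tables were scaled separately and differ in species and cells, so these are placed side by side with no test between them. The log2 values were 0.92 for NEAT1 after knockdown and 0.70 for Neat1 after knockout. PURPL and LINC00861 have no row in the mouse table under those names.

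Several marker lists moved with the mouse groups beside Neat1 and Malat1. The summed level of the 6 matched hepatocyte markers was 1.31 to 1.72 CPM in WT and 28.3 to 32.2 in cKO, and 4 of 4 tested rose. The 8 matched granulocyte and monocyte markers summed to 662 to 921 CPM in WT and 312 to 558 in cKO, and 7 of 7 tested fell (4 of 7 called without cKO replicate 3). Of 12 listed erythroid markers 5 matched by symbol, with no globin gene among them. These summed to 1569.6 to 1591 CPM in WT and 918 to 929.7 in cKO (1 of 5 higher, 3 lower). Megakaryocyte markers summed to 114 to 133 and 192 to 265 CPM, and endothelial markers to 79.8 to 99.9 and 118 to 138. In the human cells, granulocyte and monocyte markers summed to 776 to 789 CPM in shNC and 582 to 589 in shDDX21 (1 of 7 higher, 6 lower), and endothelial markers to 1922 to 1975 and 1613 to 1633 (2 of 8 higher, 5 lower). Human erythroid markers summed to 1786 to 1817 CPM and 1462 to 1528 (4 of 8 higher, 2 lower), and megakaryocyte markers to 1615 to 1689.9 and 1893 to 1926 (3 of 5 higher, 1 lower). The part of these cells in the levels of the noncoding RNAs was not tested.

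The RNAs that encode the proteins that build paraspeckles with NEAT1 were mostly lower in the human cells. Protein levels were not measured, here or for the lists below. Of 28 tested, 5 rose and 20 fell, with a median log2 fold change of -0.28, against 0.005 over all genes and -0.035 over the genes with a symbol, of which 27.5% were higher and 34.8% lower. HNRNPK, an RNA-binding protein needed to choose between the NEAT1 forms, went from 725 ± 9.9 to 287 ± 4.56 CPM (log2 fold change -1.34, SE 0.023; edgeR, adjusted p 7.09e-57). RBMX and EWSR1, also RNA-binding proteins, fell by 0.75 and 0.45 on the log2 scale. SFPQ fell by 0.34, and NONO, its partner, rose by 0.22. In the mouse, 2 of 29 rose and 7 fell, with a median of -0.10 against 0.001 over all genes. Ubap2l fell by 0.23 and Nudt21, a factor of 3′ end choice, by 0.20, and Rbmx rose by 0.37, while human RBMX fell; the difference between the species was not tested. Nudt21 did not pass with total counts (adjusted p 0.0763) or upper-quartile scaling (0.0509). The mouse count of 9 went to 3 without WT replicate 1, to 4 without WT replicate 2, to 3 without cKO replicate 3 and to 5 with total counts.

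Nuclear speckle proteins share a nuclear body with MALAT1. In the human cells the RNAs of 6 of 28 rose and those of 17 fell, with a median of -0.14. The splicing factors SRSF9, SRSF3 and SRSF7 fell by 0.92, 0.62 and 0.78. In the mouse 13 of 29 fell, with a median of -0.16, and 0 passed as higher by edgeR, by an unadjusted p under 0.05 or by DESeq2; with total counts 1 passed as higher. Srrm1, Srsf2 and Pnn fell by 0.24, 0.21 and 0.24. The mouse count of 13 went to 5 to 8 with upper-quartile scaling, total counts, DESeq2, or without WT replicate 1, WT replicate 2 or cKO replicate 3.

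Another list held the genes for RNase P, which cuts the 3′ ends, METTL16, which binds the triple helix, and RNase Z (ELAC2). In the human cells 8 of 11 tested fell, with a median of -0.31. As higher, 0 passed by edgeR, by an unadjusted p under 0.05 or by DESeq2. POP1, the largest protein subunit of RNase P, went from 25 ± 1.37 to 12.1 ± 1.18 CPM (log2 fold change -1.04). RPP40, another subunit, fell by 0.93 and ELAC2 by 0.31. In the mouse, Rpp14 and Mettl16 passed as lower, by 0.18 and 0.10, of 11 tested; Elac2 was at 0.05 and Pop1 at 0.10, and neither passed. The mouse count of 2 was 0 with DESeq2 or without cKO replicate 3, and 1 without WT replicate 1, WT replicate 2 or cKO replicate 2. With total counts 1 passed as higher and 0 as lower, and with upper-quartile scaling 1 passed as lower. Mettl16 did not pass without any 1 of the 6 libraries (adjusted p 0.0753 to 0.139). Rpp14 did not pass with upper-quartile scaling, total counts, DESeq2 or the length correction, or without cKO replicate 3 (adjusted p 0.0608 to 0.121 over these). Among the genes of the nuclear exosome and its NEXT and PAXT adaptors, which degrade nuclear RNA, 3 of 17 were higher and 10 lower in the human cells (median -0.19). EXOSC2 was at -0.68, MPHOSPH6 at -0.93 and PABPN1, which encodes the poly(A)-binding protein of PAXT, at 0.41. In the mouse 1 of 17 was higher and 4 were lower (median -0.11), with Exosc8 at -0.29, Zcchc8 at -0.39 and Exosc9 at 0.22; the count of 5 went to 2 or 3 without WT replicate 1, WT replicate 2 or cKO replicate 3, or with total counts. Exosc9 did not pass with DESeq2 (adjusted p 0.0703), the length correction (0.0973), or without WT replicate 1 (0.0572) or cKO replicate 3 (0.0662).

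The p53 pathway is that of PURPL. Of 26 p53 target genes tested in the human cells, 19 rose and 5 fell, with a median of 0.31. CCNG1 rose by 0.80 (374 ± 5.77 to 649 ± 12 CPM), TP53INP1 by 0.87, and CDKN1A, the cell cycle inhibitor p21, by 0.59. MYBBP1A, which encodes the nucleolar protein that PURPL binds, fell by 0.50, and ELAVL1, which encodes an RNA-binding protein, fell by 0.45. The p53 inhibitors MDM2 and MDM4 rose by 0.28 and 0.19. In the mouse 15 of 23 target genes rose and 1 fell, with a median of 1.05, and Cdkn1a went from 5.08 ± 0.674 to 284 ± 7.64 CPM. Mdm2 and Mdm4 rose by 2.50 and 0.82, and Mybbp1a and Elavl1 were at -0.04 and -0.01 and did not pass.

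Of the p53-linked noncoding RNAs other than PURPL and NEAT1, the 3 tested in the human cells all passed as higher. MIR34AHG, the host of a p53-induced microRNA, went from 50.3 ± 2.45 to 78.6 ± 1.21 CPM (log2 fold change 0.64), LINC-PINT rose by 0.58 and TP53TG1 by 0.40. TP53TG1 did not pass with DESeq2 (adjusted p 0.0521), without shNC replicate 3 (0.154) or without shDDX21 replicate 1 (0.0557). Among 19 other named long noncoding RNAs, a list that also holds LINC-PINT, 11 passed as higher and 5 as lower, with a median of 0.16. NORAD and FTX rose by 0.32 and 0.36, and OIP5-AS1 fell by 0.57. In the mouse 2 of 12 were higher and 4 lower. H19, an imprinted RNA, fell by 1.14 and Dleu2 by 0.59, and Firre rose by 0.56. LINC00861 is known from lymphoid cells, and of 15 lymphoid genes tested in the human cells 2 rose, 7 fell and 6 did not pass, with a median of -0.09. CD2 and CD3G rose, by 0.79 and 0.71, and those with the smallest p were IL7R at -2.32 (29.3 ± 1.04 to 5.84 ± 0.176 CPM), IKZF1 at -0.69 and LTB at -1.25. Its own log2 difference was 1.80.

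**Figure D3:**
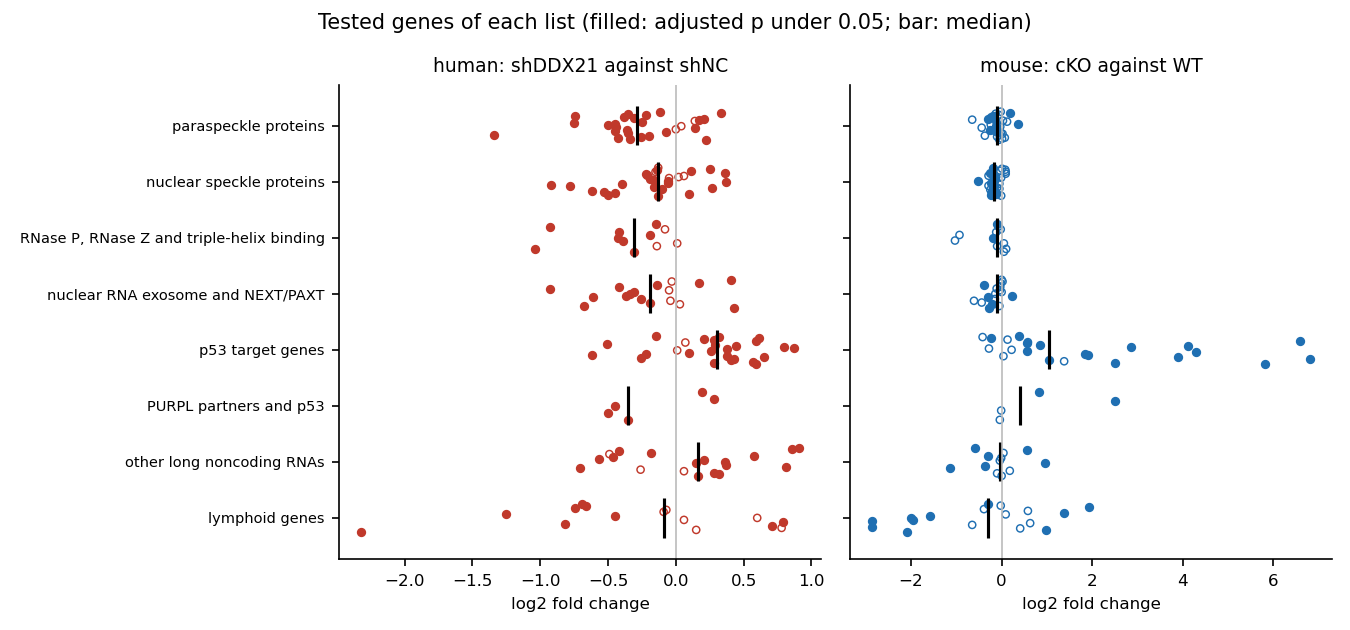
Log2 fold change (x axis) of the tested genes of each list, human shDDX21 against shNC at left and mouse cKO against WT at right; filled points passed the test, open points did not, and black bars are medians. The human medians were -0.28 for paraspeckle, -0.14 for speckle and -0.31 for RNase P genes and 0.31 for p53 targets.

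Noncoding genes with a symbol were then counted by class, with the members left out. Of 184 genes named LINC with digits, 39.1% passed as higher and 13.0% as lower, with a median of 0.29. The antisense class (-AS and a digit) had 34.2% higher and 6.8% lower of 412, the divergent transcripts (-DT) 39.3% and 6.13% of 163, and the microRNA host genes 46.2% and 7.69% of 26. Over all genes with a symbol these shares were 27.5% and 34.8%. Without a strand setting, reads of an antisense or divergent gene and its partner cannot be told apart where they overlap. The median level in these classes was 2.71 to 4.9 CPM, far below NEAT1 and PURPL. A log2 fold change at or above that of PURPL was seen in 17 of 184 LINC genes, 17 of 412 antisense genes, 12 of 163 divergent genes and 1 of 26 host genes. Among called genes with a mean of at least 5 CPM, those at the ends of the LINC class were LINC00642 at 1.46 and LINC01504 at 1.32, and LINC03040 at -1.64 and LINC01963 at -1.25. In the other classes MEIS1-AS2 (1.40), CAPN1-AS1 (1.25) and DNAJC3-DT (1.13) were among the highest, and OTUD6B-AS1 (-0.96), RASGRP3-AS1 (-0.65), HK2-DT (-0.76) and LRRC8C-DT (-0.73) among the lowest. Among host genes, MIR497HG was at 0.47, MIR4435-2HG at 0.12 and MIR17HG at -0.71.

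**Figure D4:**
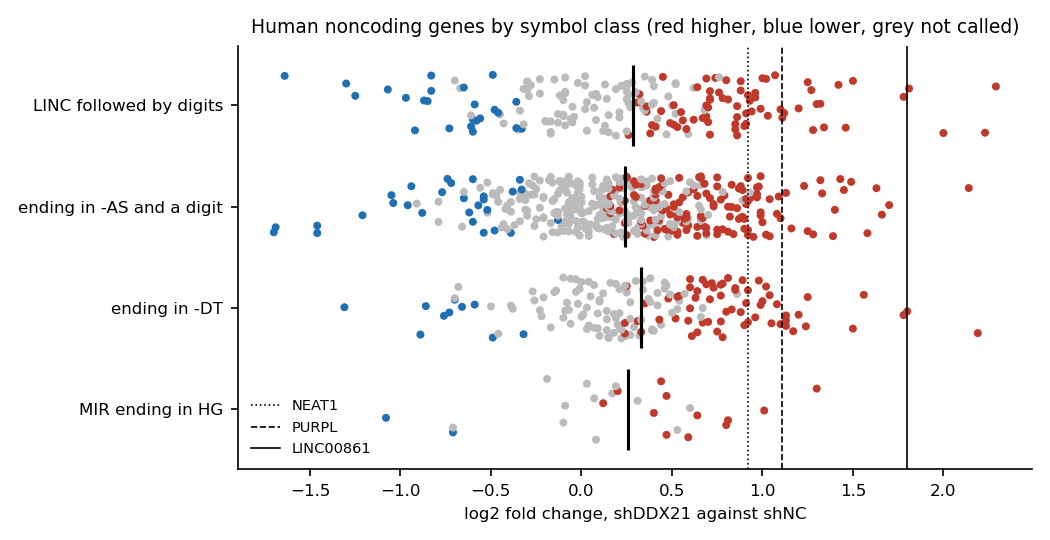
Log2 fold change (x axis) of tested human genes in 4 symbol classes of noncoding genes, members left out; each point is a gene, red passed as higher, blue as lower and grey did not pass, black bars are medians and vertical lines mark NEAT1, PURPL and LINC00861. The class medians ran from 0.24 to 0.33, and PURPL stood at 1.11.

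Several genes near NEAT1 were also higher. On the side away from the MALAT1 position, FRMD8 went from 150.4 ± 5.11 to 231 ± 3.1 CPM (log2 fold change 0.62), SLC25A45 rose by 0.63 and TIGD3 by 1.17. On the other side LTBP3 and ZNRD2 were at -0.07 and -0.09 and did not pass. In the mouse Slc25a45 passed as higher (0.37); Tigd3 and Znrd2 fell by 0.75 and 0.88, and Frmd8 was at -0.08 and did not pass, with a level of 50.3 ± 14.1 CPM in WT. Znrd2, at 1.62 CPM in WT, did not pass with DESeq2 (adjusted p 0.0955) or without WT replicate 1 (0.108), WT replicate 2 (0.139), cKO replicate 1 (0.0952) or cKO replicate 2 (0.0833). The nearest tested and named genes around PURPL were 3903 to 10281 kb away; MYO10, BASP1 and C5orf22 fell by 0.93, 0.72 and 0.31, and DROSHA, PDZD2 and GUSBP1 were at -0.08, 0.06 and -0.20 and did not pass. Around LINC00861, MYC went from 199.6 ± 3.25 to 88.6 ± 2.18 CPM (-1.17), TRIB1 and LRATD2 fell by 0.51 and 0.28, NSMCE2 rose by 0.25, and RN7SL329P and PCAT2 were at 0.22 and -0.69 and did not pass.

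**Figure D5:**
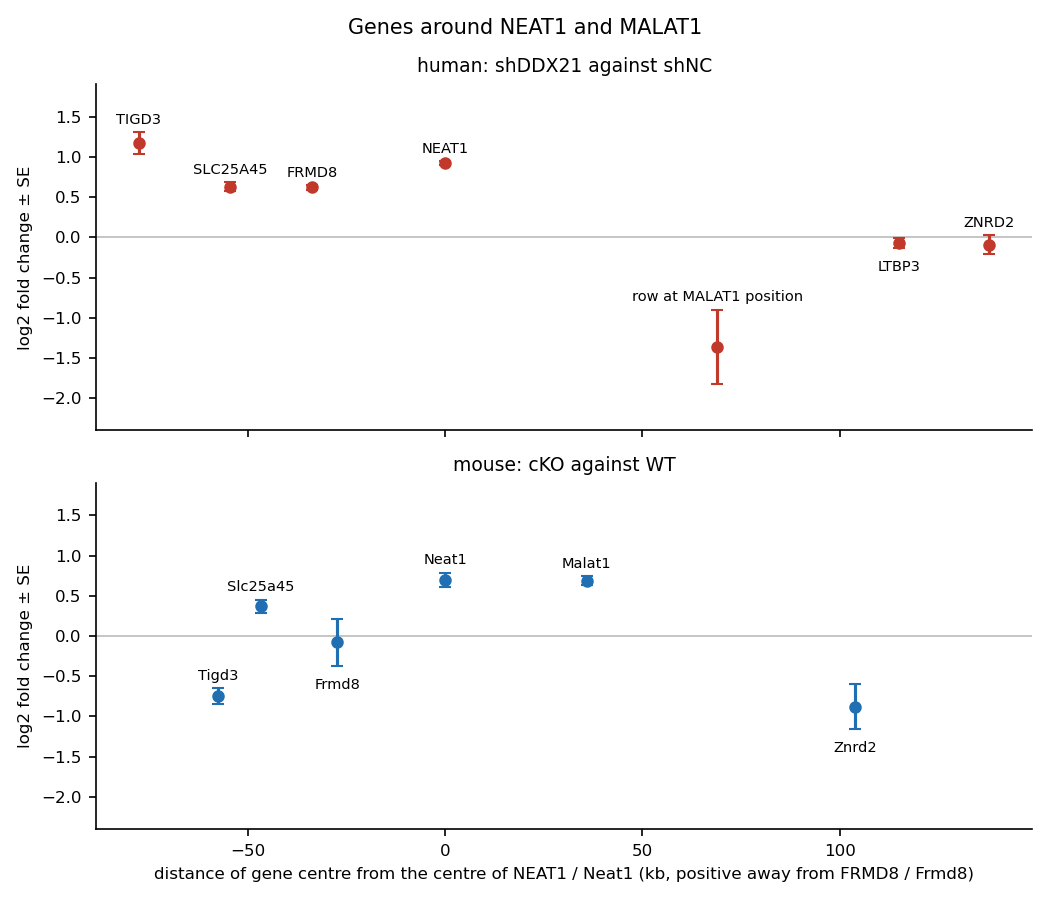
Log2 fold change with its SE (y axis) of genes around human NEAT1 (top) and mouse Neat1 (bottom) by distance of the gene centre from the centre of that gene (x axis, kb, positive away from FRMD8 or Frmd8). TIGD3, SLC25A45 and FRMD8 were at 1.17, 0.63 and 0.62 in the human cells, and Tigd3, Slc25a45 and Frmd8 at -0.75, 0.37 and -0.08 in the mouse.

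Likeness of profile was measured as the root mean square difference between centred log2 CPM values over the 6 libraries of an experiment, where 0 is an identical profile. Among 11091 human genes with a mean of at least 5 CPM, SLC9A9 (0.0341) and ACKR2 (0.0364) were among the nearest to PURPL. Nearest to LINC00861 were SIGLEC1 (0.087), OAS1 (0.089) and OR2AT4 (0.092), and to NEAT1 they were SERP2 (0.0369), LINC02160 (0.0378) and SGIP1 (0.0407). PURPL and NEAT1 differed by 0.117. In the mouse, over 9679 genes, Neat1 was nearest to Mpdz (0.0413), Vps36 (0.0472) and Atp8b2 (0.0528), and Malat1 to Tes (0.0206), Gm32051 (0.0228) and Rbl2 (0.0291). Neat1 and Malat1 differed by 0.0876. These genes share their libraries and group means with the RNAs they resemble.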

How the data were processed

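Raw values are whole-number counts of reads per gene in deposited tables; per the submitters' processing notes, STAR, featureCounts and DESeq2 were used with mm10 and hg38, without roles or versions. The deposited table that pairs genes with symbols holds normalized values (signal) equal to the count times 1 constant per library (largest relative deviation 4.97e-10) and log2 values made from them by the authors. Exon lengths and positions are as deposited. Strand setting and handling of overlapping reads are not given in the sources used here.

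Tests used edgeR 4.0.16 under R 4.3.3 on these counts (filterByExpr, TMM scaling, glmQLFit and glmQLFTest, two-sided, Benjamini-Hochberg), human and mouse separately; genes were called at adjusted p under 0.05. SE was taken as the size of the log2 fold change divided by the root of F. DESeq2 1.42.0 was an alternative. Simulated counts with 200 changed genes, each of a mean of at least 50 counts, gave back 200 in each experiment, with 7 false calls among 20189 human and 7 among 14882 mouse genes. The simulation gave all genes the same spread and made the libraries independent. In the real data 52.7% of human genes were called and some mouse libraries stand apart, so the simulation does not show the rate of false calls there. Fits cover all genes; only member genes, lists, neighbours and likeness results are printed. The members and lists were chosen with earlier results of these data known. Named genes were the members, DDX21, up to 3 called genes with the smallest p per list, neighbours, nearest profiles and class extremes; SFPQ, NONO and other genes named beyond these, such as Elac2 and Pop1, were chosen after their values were seen. Replicates differed by more than counting noise, so none were merged, and all 12 libraries were kept, also the mouse libraries that stand apart. A few genes that the naming rule takes are not reported here. The row at the MALAT1 position was found by a window chosen after the data were seen.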

Additional observations from a re-analysis of the deposited data

Results flagged for a closer look

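The row at the human MALAT1 position had a log2 difference of -1.36 in shDDX21 against shNC, and mouse Malat1 had 0.69 in cKO against WT: every human knockdown library lay below every control, and every mouse cKO library above every WT library. The difference between the 2 was not tested, the human values belong to the listed contrast, and the human row had 60 counts in all and shares all but 818 of its bases with other rows.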

How the results depend on the processing

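The log2 difference of PURPL was 1.18 with upper-quartile factors, 1.08 with total counts and 1.17 with a gene-length offset, also 1.17 with the offset and a replicate block. That of LINC00861 was 1.87 with upper-quartile factors, 1.88 with the length offset and 1.87 with the offset and block. Against the main values of 1.11 and 1.80 these moved by more than the spread between libraries, while keeping direction. NEAT1 ran from 0.87 to 0.99 and the row at the MALAT1 position from -1.58 to -0.92 over 14 alternatives; a filter of 10 counts in every library did not keep that row. Mouse Neat1 ran from 0.48 to 0.76 (adjusted p 2.44e-05 to 0.00994) and Malat1 from 0.61 to 0.75 (7.16e-14 to 0.00113), past the threshold in all 15. Genes called ranged from 8931 to 10890 in human and 3717 (without cKO replicate 3) to 5710 in mouse. With the replicate number as a block, 10601 human and 5166 mouse genes were called, Neat1 at 0.70 (edgeR, adjusted p 0.00409) and Malat1 at 0.68 (0.000223). The log2 CPM of each library was also taken as a deviation from its group mean, and these deviations were correlated between groups. For same-numbered libraries the correlations were -0.0387, 0.0128 and -0.00648 in human and 0.791, -0.63 and 0.0918 in mouse. The numbers were therefore not taken as pairs. Not every library had its best correlation with its own number (mouse WT replicate 3 at 0.83 with cKO replicate 2 and -0.865 with cKO replicate 1). Of 510 list counts, 26 moved by over 1.5 times. Of 100 named genes called besides the members, 91 stayed called, in the same direction, under every alternative that gave an adjusted p; the other 9 were METTL16, TP53TG1, Nudt21, Rpp14, Mettl16, Exosc9, Kit, Itgam and Znrd2, each with its direction kept. With 3 libraries per group, exact two-sided permutation p-values for single genes start at 0.1.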
